A study of Rattus norvegicus with 21 samples.

Results

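The genes described here encode the enzymes and carriers that bring glucose into astrocytes, break it down to pyruvate and lactate, store it as glycogen and pass pyruvate to the mitochondria. The set is a list of 34 genes, taken whole without a threshold on any value, but drawn up with earlier results of these data known. Of these, 32 had a probe set that carried their symbol alone, among 14217 genes measured in this way on the rat expression arrays. Pkm, the main pyruvate kinase, shared its probe set with a pseudogene, and Ppp1r3c, which brings protein phosphatase 1 to glycogen, had no probe set of its own, so neither was analysed here. Where a gene had several probe sets, as 13 of the 32 did, the one with the highest mean over all arrays was used.

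RNA came from forebrain astrocytes of Sprague Dawley rats in 7 groups of 3 arrays, labelled as biological replicates. Withdrawn P7 cultures were cells panned at postnatal day 7 (P7) on the integrin ITGB5, grown for 7 days in 10% foetal calf serum, then washed and kept for another 7 days in serum-free medium with HBEGF, a growth factor of the EGF family. Serum P7 cultures had the 7 days of serum only, and HBEGF P7 cultures had 7 days of HBEGF at 5 ng/ml without serum. MD cultures were prepared from forebrain of postnatal day 1 (P1) by the method of McCarthy and de Vellis, without panning, and spent 7 days in 10% serum. HBEGF P1 cultures were panned at P1 and treated like the HBEGF P7 cultures. Fresh P7 and fresh P1 cells were panned and lysed at once. Panning selects cells that carry ITGB5, and MD cultures were not selected in this way. MD and HBEGF P1 cultures therefore differ in selection as well as in medium. A label field of the HBEGF P7 cultures reads p1, against their titles and source names, and the titles were followed.

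Glycolysis converts glucose to pyruvate in the cytosol. Pyruvate is then reduced to lactate, oxidised by the pyruvate dehydrogenase complex or carboxylated to oxaloacetate. In brain, astrocytes hold most of the glycogen, carry most of the pyruvate carboxylase and release lactate, which neurons can take up. Lactate dehydrogenase is built from A subunits (Ldha) and B subunits (Ldhb), and tetramers rich in A are usually associated with lactate production.

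The promoters of 29 of the 32 measured genes were found in RefSeq (rat assembly GRCr8). They were searched on both strands from 250 bases before to 50 bases after the start for ACGTG and GCGTG, the core to which hypoxia-inducible factors bind. The 250 bases before the start are shown for Ldha and Ldhb, whose levels moved in opposite directions in MD cultures, for the glucose transporter gene Slc2a1 and for Pdk4, the member with the widest range. Capitals mark a match on either strand.
Ldha, chr1:106507842-106508091, plus strand: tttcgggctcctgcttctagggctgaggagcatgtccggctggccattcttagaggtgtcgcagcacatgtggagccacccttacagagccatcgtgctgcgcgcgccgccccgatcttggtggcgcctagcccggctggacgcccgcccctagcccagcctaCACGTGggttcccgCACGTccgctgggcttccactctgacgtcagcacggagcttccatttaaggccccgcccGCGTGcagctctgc
Ldhb, chr4:177177409-177177658, minus strand: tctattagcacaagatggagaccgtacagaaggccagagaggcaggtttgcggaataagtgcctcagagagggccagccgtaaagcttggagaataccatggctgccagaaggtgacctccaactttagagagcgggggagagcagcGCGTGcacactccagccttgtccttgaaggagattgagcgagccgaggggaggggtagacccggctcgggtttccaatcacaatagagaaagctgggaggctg
Slc2a1, chr5:138002272-138002521, plus strand: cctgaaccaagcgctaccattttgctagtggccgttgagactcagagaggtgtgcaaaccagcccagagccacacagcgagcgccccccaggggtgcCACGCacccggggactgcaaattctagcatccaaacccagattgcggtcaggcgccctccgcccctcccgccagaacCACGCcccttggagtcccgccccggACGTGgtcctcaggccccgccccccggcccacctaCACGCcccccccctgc
Pdk4, chr4:34568330-34568579, minus strand: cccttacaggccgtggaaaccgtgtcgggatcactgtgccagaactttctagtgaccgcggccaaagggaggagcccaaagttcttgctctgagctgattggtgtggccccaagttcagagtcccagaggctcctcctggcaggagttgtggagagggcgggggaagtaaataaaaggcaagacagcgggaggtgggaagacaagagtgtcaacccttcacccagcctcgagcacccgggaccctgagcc
In the bases shown, the first base of the Ldha matches lay 14, 73, 86 and 87 bases before the start. The last pair overlapped within a CACGTG, which reads as ACGTG on both strands. Over the whole window searched, with the 50 bases after the start, Ldha had 6 matches. Ldhb had 1 match, 103 bases before the start, Slc2a1 had matches at 16, 51, 76 and 153 bases, and the Pdk4 window held none. Either core was found in 22 of the 29 promoters (75.9%) and in 42.9% of all 27457 rat promoters of this length. ACGTG alone was in 55.2% of the 29 against 19.7% of all, GCGTG in 51.7% against 31.1%, and CACGTG in 13.8% against 6.65%. The 29 were also richer in G and C, with a median of 60.0% against 52.0% of all promoters. These counts describe letters and carry no test.

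Values are log2 of the deposited intensities. They are compared between groups for 1 gene at a time, since levels of different probe sets cannot be set against each other. Array medians lay between 128 and 146 on the linear scale. Spearman correlations over genes ran from 0.952 to 0.995 between arrays of a group and from 0.846 to 0.984 between arrays of different groups. Of 12 astrocyte markers 11 were measured, and apart from Slc1a2 and Gjb6 each was above the median of all values (7.11) in every group. The summed intensity of these markers was 55560 to 66564 in MD cultures, the lowest of any group. HBEGF P7 replicate 2 differed from replicates 1 and 3 in several members and in the sum of fibroblast and meningeal markers (22525, against 51759 and 47239), so results that rest on it are given without it. Serum P7 replicate 3 also stood apart from replicates 1 and 2. Its summed markers were 13836 for oligodendrocyte progenitors (against 2413 and 3685) and 20828 for oligodendrocytes (against 4303 and 6114). HBEGF P7 replicate 3 had a microglia sum of 2082, against 517 and 420 in replicates 1 and 2. Changes were tested with limma over all probe sets, and a change is called at an adjusted p under 0.05 and at least 1 log2 unit (2-fold). SE is the standard error of a log2 change. In RNA from many cells, fewer cells of a type and less RNA per cell cannot be told apart.

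Of the 32 genes, 25 had group means above the median of all values in all 7 groups, and 11 were above the 90th percentile (10.88) throughout. Those 11 were Gpi, Aldoa, Aldoc, Tpi1, Pgk1, Pgam1, Eno1, Ldha, Ldhb, Pygb and Pdha1, most of them shared steps of glycolysis. Hk2 and Slc16a3 stayed below the median in every group. The group means of 10 genes spanned less than 1 log2 unit, and Eno1, the common enolase, had the narrowest span, 0.47. At the other end, 9 genes spanned 2 units or more. Pdk4, a kinase that inhibits pyruvate dehydrogenase, spanned 4.82 and Pc, pyruvate carboxylase, 3.28. Pygl, liver glycogen phosphorylase, spanned 2.95 and Pfkfb3, which makes an activator of phosphofructokinase, 2.54. MD cultures held the lowest group mean for 14 of the 32 genes and the highest for 6. The counts of this paragraph were not made over all genes. Over all genes too, the 2 comparisons of MD cultures had the most calls, 19.6% against fresh P1 cells and 18.4% against HBEGF P1 cultures. The median and percentile are those of all probe sets, while each gene was read from its brightest one.

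**Figure D1:**
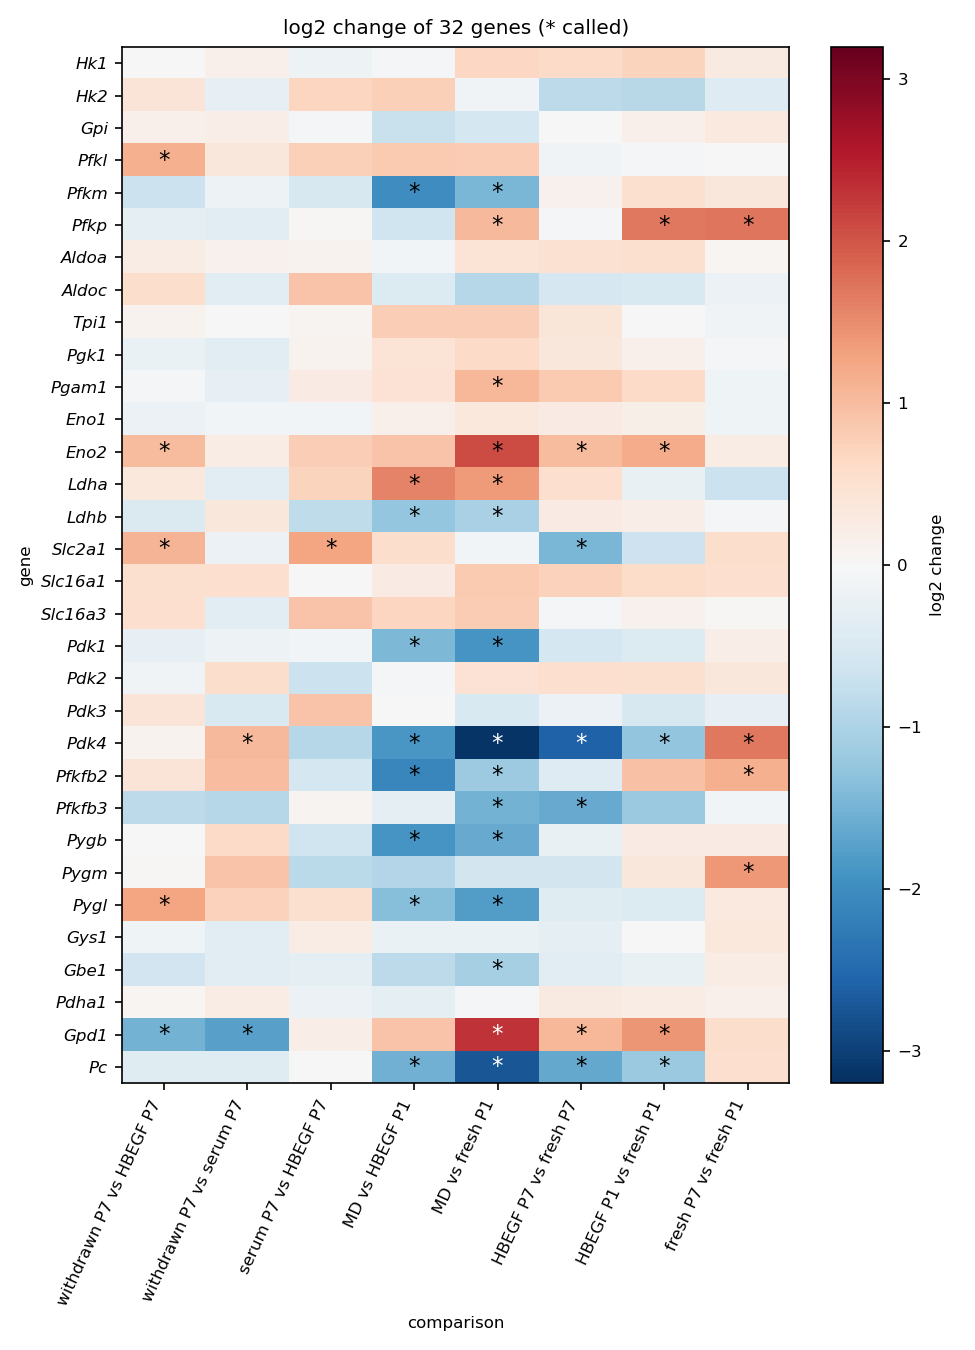
Change of each of the 32 genes (down the page) in each of 8 comparisons (across), as log2 change by colour from blue (lower in the group named first) to red (higher), with an asterisk where the change was called. The columns of MD cultures hold the most asterisks, 15 against fresh P1 cells and 9 against HBEGF P1 cultures. These comparisons also had the most calls over all genes, 19.6% and 18.4%.

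Among the members, 14 were called in none of the 8 pairwise comparisons, a count that was not made over all genes. The lactate carrier gene Slc16a1 had group means between 10.32 in fresh P1 cells and 12.10 in withdrawn P7 cultures. Its arrays ran from 11.39 to 12.50 in withdrawn P7 cultures and from 10.06 to 10.48 in fresh P1 cells. Pdk2 lay between 10.26 in fresh P1 cells and 11.16 in HBEGF P7 cultures, and Pdk3 between 9.78 in HBEGF P1 and 10.72 in serum P7 cultures. Slc16a3, the other carrier, lay between 6.16 in HBEGF P7 and 7.06 in serum P7 cultures. Gys1 stayed between 8.93 in MD cultures and 9.49 in fresh P7 cells and Pdha1 between 11.75 in MD and 12.29 in withdrawn P7 cultures. Of the steps of glycolysis itself, Hk1 spanned 0.88, Hk2 1.24, Gpi 1.02, Aldoa 0.77, Aldoc 1.08, Tpi1 0.91, Pgk1 0.67 and Eno1 0.47 between their lowest and highest group means.

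Fresh cells were compared between the ages first. Fresh P7 cells had higher levels of the phosphofructokinase gene Pfkp, the regulatory genes Pdk4 and Pfkfb2 and the muscle glycogen phosphorylase gene Pygm than fresh P1 cells, and no member was called lower. With limma, 4 of the 32 were called higher and 0 lower, where 1.37% of all genes were called higher and 0.183% lower. At an unadjusted p under 0.05, 6 members were higher and 1 was lower, with 12.1% and 8.21% of all genes. The median change of the members was 0.23, against -0.02 over all genes.

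Pfkp, the platelet form of phosphofructokinase, was at 11.08, 10.75 and 10.50 in fresh P7 cells, against 9.18, 8.89 and 9.12 in fresh P1 cells. The groups were well apart, with a log2 change of 1.71 (SE 0.23, adjusted p = 0.000528). Pdk4 was at 11.87, 11.87 and 11.90 in fresh P7 cells, against 9.77, 9.87 and 10.92 in fresh P1 cells. Every fresh P7 array was above every fresh P1 array, of which replicate 3 was highest, and the change was 1.69 (SE 0.28, adjusted p = 0.00298). A dimmer second probe set of Pdk4 gave 1.07 (adjusted p = 0.0558). Pfkfb2, which like Pfkfb3 sets the level of the phosphofructokinase activator, rose by 1.14 (SE 0.18, adjusted p = 0.00196), while 3 dimmer probe sets of this gene gave -0.06, 0.33 and -0.12. Pygm rose by 1.40 (SE 0.29, adjusted p = 0.0128), with group means of 7.51 in fresh P7 cells and 6.10 in fresh P1 cells, and was no longer called without fresh P7 replicate 3 (adjusted p = 0.0534). Ldha was at 12.41 ± 0.11 in fresh P7 cells and 13.10 ± 0.29 in fresh P1 cells (SD, n = 3 each), without overlap but not called (-0.70, adjusted p = 0.0792). Ldhb (-0.06), Aldoa (0.06), Aldoc (-0.19), Hk1 (0.28) and Hk2 (-0.41) were not called either. The summed intensity of the 11 astrocyte markers was 127107 to 137887 in fresh P7 cells and 85756 to 92276 in fresh P1 cells, with 4 of the 11 called higher. Among microglia markers 2 of 9 were called higher (sums of 898 to 1904 in fresh P7 and 488 to 632 in fresh P1 cells), and 1 of 10 neuron and 1 of 7 endothelial markers were called lower. The part of these cells in the changes was not tested.

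Culture in HBEGF without serum was then set against fresh cells of the same age. At both ages Pdk4 and Pc fell while Eno2, the enolase named for neurons, and Gpd1, cytosolic glycerol phosphate dehydrogenase, rose. At P1, 3 of the 32 members were called higher and 2 lower in HBEGF P1 cultures, with 4.38% of all genes higher and 4.49% lower. At P7, 2 were called higher and 4 lower in HBEGF P7 cultures, with 4.78% of all genes higher and 5.51% lower. Median changes of the members were 0.17 and -0.07, against 0.03 and 0.07 over all genes. Markers of other cells moved in these comparisons too. The sum of 10 neuron markers was 15616 to 18076 in HBEGF P1 cultures and 8896 to 9647 in fresh P1 cells, with none of them called, and 9754 to 15679 in HBEGF P7 cultures and 6403 to 8092 in fresh P7 cells, with 2 called higher. Of 5 markers of oligodendrocyte progenitors, 3 were called higher in HBEGF P1 cultures (sums of 10740 to 13683, against 1283 to 1493 in fresh P1 cells) and 1 in HBEGF P7 cultures (3296 to 8466, against 1351 to 1936 in fresh P7 cells). Among these 5, Pdgfra was at 13.23 in HBEGF P1 and 9.55 in fresh P1 cells. Cspg4 (5.95 and 6.47) and Olig2 (6.01 and 6.09) did not rise and were below the median of all values. Of 10 fibroblast and meningeal markers, a list that also holds Pdgfra, 2 were called higher in HBEGF P1 and 4 in HBEGF P7 cultures. Of 7 endothelial markers, 2 were called lower in HBEGF P1 and 1 in HBEGF P7 cultures, and 0 higher. Cldn5 was at 4.72 in HBEGF P1 and 8.98 in fresh P1 cells, and at 5.10 in HBEGF P7 and 6.84 in fresh P7 cells. Of 6 mural markers, 1 and 2 were called lower at P1 and P7, and of 9 microglia markers 0 and 2, with 0 higher. Of the 11 astrocyte markers, 4 were called higher and 2 lower in HBEGF P1 cultures, and 0 higher and 3 lower in HBEGF P7 cultures. Their part in the member changes was not tested.

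Pc, which makes oxaloacetate from pyruvate, was at 9.26, 9.25 and 9.36 in HBEGF P1 cultures, against 10.53, 10.72 and 10.23 in fresh P1 cells. At P7 it was at 9.68, 9.34 and 9.14 in HBEGF P7 cultures, against 10.90, 10.95 and 11.23 in fresh P7 cells. The cultures lay below the fresh cells on every array, with changes of -1.20 at P1 (SE 0.22, adjusted p = 0.00088) and -1.64 at P7 (SE 0.22, adjusted p = 4.36e-05). Pdk4 was at 9.12, 8.66 and 9.01 in HBEGF P1 cultures and at 9.75, 8.88 and 9.25 in HBEGF P7 cultures. It fell by 1.26 against fresh P1 cells (SE 0.28, adjusted p = 0.0037) and by 2.59, or 6-fold, against fresh P7 cells (SE 0.28, adjusted p = 4.14e-06). Without fresh P1 replicate 3, its highest fresh P1 array, the first of these was -0.89 and no longer called. The second probe set of Pdk4 gave -0.30 and -1.40. Eno2 was at 9.10 ± 0.27 in HBEGF P1 cultures and 7.92 ± 0.11 in fresh P1 cells (SD, n = 3 each; change 1.18, adjusted p = 0.000326), and at 9.15 ± 0.14 in HBEGF P7 cultures and 8.15 ± 0.36 in fresh P7 cells (SD, n = 3 each; change 1.01, adjusted p = 0.00111). The P7 value of Eno2 dropped under the fold limit when fresh P7 replicate 2 (0.80) or HBEGF P7 replicate 1 (0.93) was left out. Gpd1 rose by 1.41 at P1 (SE 0.35, adjusted p = 0.00796) and by 1.07 at P7 (SE 0.35, adjusted p = 0.0341). A dim second probe set of Gpd1 gave -0.01 and 0.25, and the P7 call was lost without HBEGF P7 replicate 2 (0.54) or without any 1 of the fresh P7 arrays.

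Other changes were called at 1 age only. Pfkp was at 10.97, 10.80 and 10.46 in HBEGF P1 cultures, against 9.18, 8.89 and 9.12 in fresh P1 cells. The groups did not overlap (1.68, SE 0.23, adjusted p = 5.88e-05). In HBEGF P7 cultures Pfkp was at 11.41, 10.37 and 10.33, within reach of the fresh P7 cells (-0.07, adjusted p = 0.871). The difference between these culture responses was called for Pfkp (-1.75, SE 0.32, adjusted p = 0.0166) and for Pfkfb2 (-1.37, SE 0.25, adjusted p = 0.0166), whose change was 0.94 in HBEGF P1 cultures and -0.42 in HBEGF P7 cultures against their fresh cells. These were 2 of the 32 members lower and 0 higher at P7 than at P1, beside 0.654% and 0.162% of all genes. At an unadjusted p under 0.05 1 member was higher and 5 were lower, with 5.73% and 8.97% of all genes. Both differences were lost without fresh P1 replicate 2 (adjusted p = 0.0595 each), and the one of Pfkp also without HBEGF P1 replicate 1 (adjusted p = 0.0535) and with the compared groups alone. The difference of Pfkfb2 rested on 1 of its 4 probe sets. The others gave -0.04, -0.20 and 0.09, and with the mean over probe sets it was not called.

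Slc2a1, the glucose transporter GLUT1, was at 10.42, 9.12 and 10.79 in HBEGF P7 cultures, against 11.66, 11.42 and 11.63 in fresh P7 cells. Replicate 2 was far below the other HBEGF P7 arrays, and the change was -1.46 (SE 0.31, adjusted p = 0.00247) with it and -0.96 without it. Slc2a1 was also lower in HBEGF P1 cultures than in fresh P1 cells on every array, but was not called (-0.66, adjusted p = 0.161). Pfkfb3 fell by 1.61 at P7 (SE 0.53, adjusted p = 0.0365), a call lost without 4 of the 6 arrays in turn, with adjusted p up to 0.155. HBEGF P7 replicate 2 was at 9.65, against 11.31 and 10.78 in replicates 1 and 3. Without it the change of Pfkfb3 was -1.15 (adjusted p = 0.155). At P1 its change was -1.20 (adjusted p = 0.134). A dim probe set of Pfkfb3 was lower at both ages. It was at 4.74 in HBEGF P1 and 7.01 in fresh P1 cells, and at 4.99 in HBEGF P7 and 7.23 in fresh P7 cells. Another dimmer probe set hardly moved, at 7.08 and 7.29 at P1 and at 6.9 and 7.01 at P7. Hk1, the main brain hexokinase, was 0.72 and 0.60 higher in the HBEGF P1 and P7 cultures (adjusted p = 0.00742 and 0.0198) and Aldoa, a general aldolase, 0.52 and 0.48 higher (adjusted p = 0.00117 and 0.00214), all under the fold limit. Aldoc, the aldolase typical of astrocytes, differed by -0.48 and -0.55 (adjusted p = 0.0652 and 0.03), and Hk2, the inducible hexokinase, by -0.89 and -0.84 (adjusted p = 0.0588 and 0.0702), none of them called. Ldha was not called at either age (-0.23 and 0.53), nor was Ldhb (0.22 and 0.27).

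**Figure D2:**
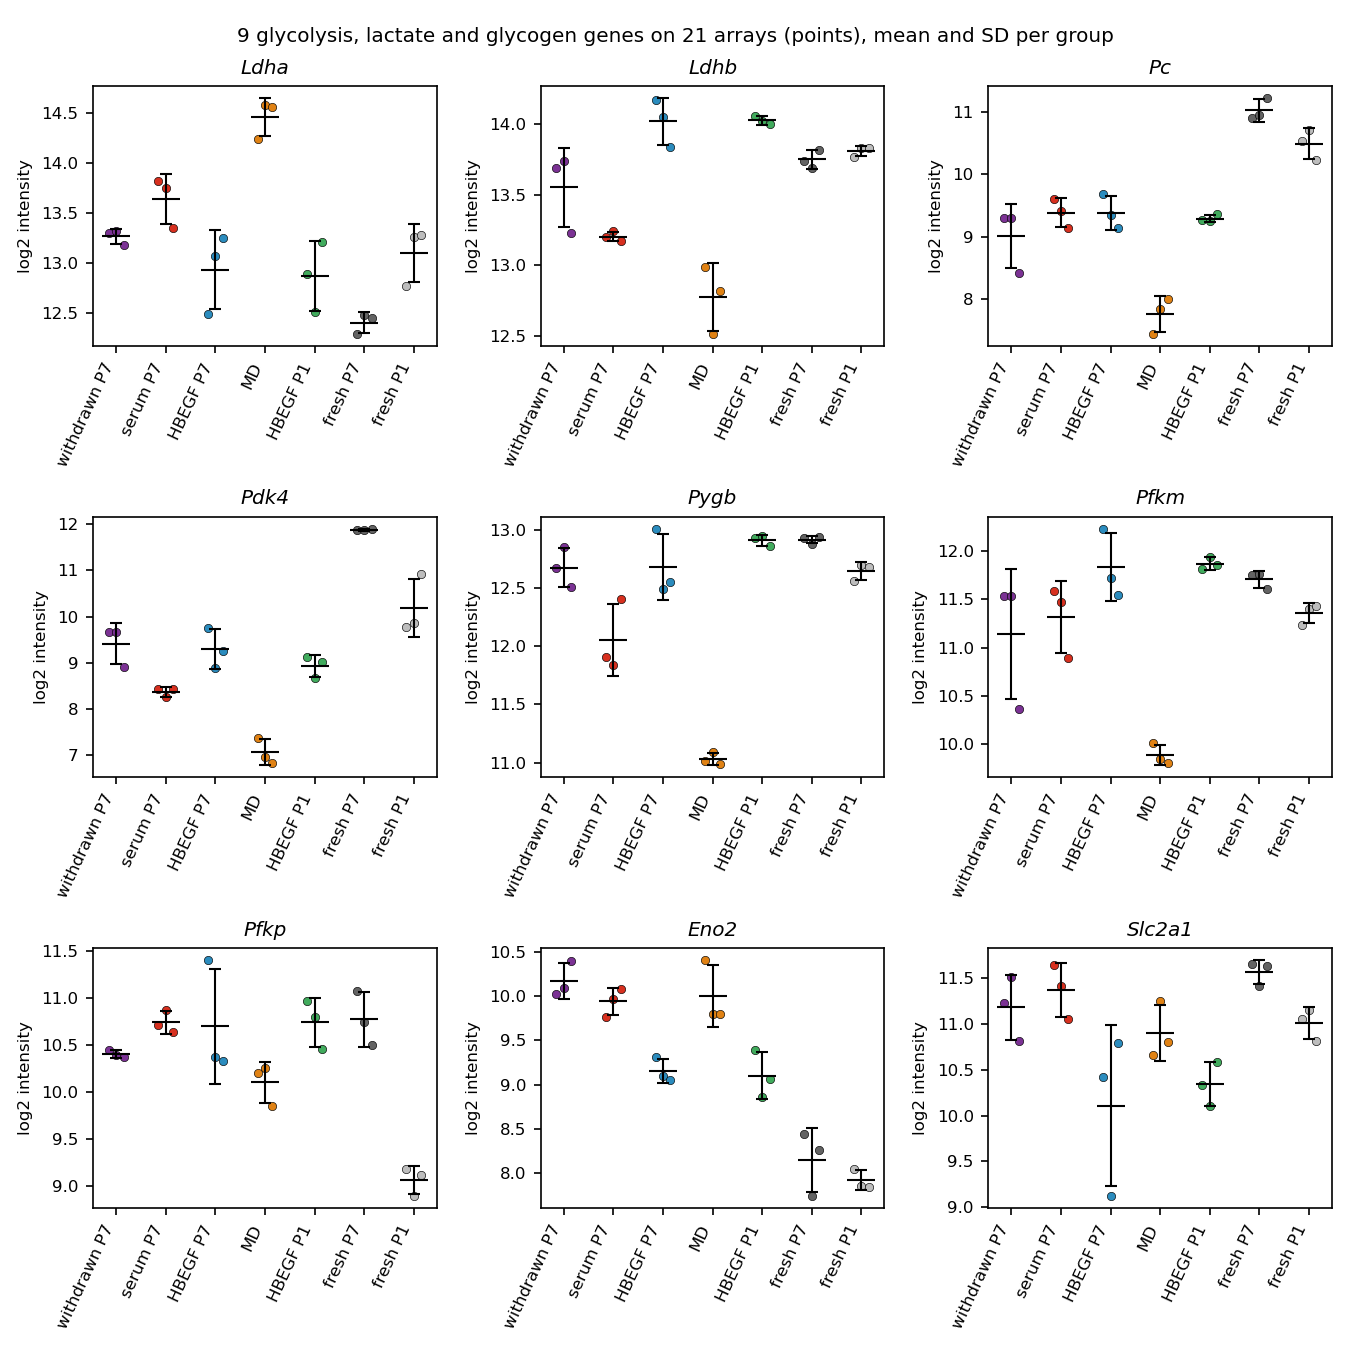
Log2 intensity of 9 genes on each array (points) in the 7 groups along the horizontal axis, with the mean (long line) and SD (error bar) of 3 arrays. In MD cultures Ldha was highest, at 14.46, while Ldhb, Pc, Pdk4, Pygb and Pfkm had their lowest group means.

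Among the 8 pairwise comparisons, the 2 of MD cultures had the most called members. In MD cultures the A subunit gene of lactate dehydrogenase rose and the B subunit gene fell, and genes of glycogen breakdown (Pygb, Pygl), of pyruvate control (Pdk1, Pdk4, Pc) and of phosphofructokinase and its activator (Pfkm, Pfkfb2) were lower than in both fresh P1 cells and HBEGF P1 cultures. Against fresh P1 cells 5 of the 32 members were called higher and 10 lower, where 10.1% of all genes were called higher and 9.43% lower. Against HBEGF P1 cultures 1 was called higher and 8 lower, where 8.81% of all genes were called higher and 9.57% lower. Both comparisons use the same MD arrays. Median changes of the members were -0.11 and -0.15, against 0.11 and 0.09 over all genes.

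Ldha was at 14.24, 14.58 and 14.56 in MD cultures, against 12.89, 12.51 and 13.21 in HBEGF P1 cultures and 12.77, 13.26 and 13.28 in fresh P1 cells. No array of either comparison group reached the MD arrays. The change was 1.59, or 3.01-fold, against HBEGF P1 cultures (SE 0.21, adjusted p = 1.3e-05) and 1.35 against fresh P1 cells (SE 0.21, adjusted p = 5.51e-05). Ldhb was at 12.99, 12.51 and 12.82 in MD cultures, against 14.06, 14.02 and 14.00 in HBEGF P1 cultures and 13.77, 13.83 and 13.83 in fresh P1 cells. All MD arrays were below all others, with changes of -1.25 (SE 0.13, adjusted p = 1.53e-06) and -1.03 (SE 0.13, adjusted p = 9.91e-06). Without MD replicate 2 the change against fresh P1 cells was -0.90, under the fold limit. The monocarboxylate carriers for lactate were not called: Slc16a1 (MCT1) was 0.25 and 0.83 higher than in HBEGF P1 cultures and fresh P1 cells (adjusted p = 0.604 and 0.073), and Slc16a3 (MCT4), a low signal throughout, was 0.68 and 0.82 higher (adjusted p = 0.00294 and 0.000662).

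Within each array the difference Ldha minus Ldhb was taken on the log2 scale. Its size in 1 group depends on the probes, so that only its shift between groups can be read. It was 1.25, 2.07 and 1.74 in MD cultures, against -1.17, -1.51 and -0.79 in HBEGF P1 cultures. The shift was 2.84, and 2.39 against fresh P1 cells. In serum P7 cultures the difference was 0.62, 0.51 and 0.18, against -1.68, -0.98 and -0.59 in HBEGF P7 cultures, a shift of 1.52. In both cases every serum-grown array lay above every HBEGF array. An exact two-sided permutation test of 3 against 3 arrays gave p = 0.1, the smallest it can give, for each of these shifts (adjusted p = 0.16 over the 24 isozyme comparisons made). The other pairs reached the same p too, so it does not mark out Ldha and Ldhb. Aldoa minus Aldoc shifted by 1.00 in HBEGF P1 and 1.02 in HBEGF P7 cultures against their fresh cells. Hk2 minus Hk1 shifted by -1.61 and -1.44 there. In serum P7 against HBEGF P7 cultures Aldoa minus Aldoc shifted by -0.80.

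**Figure D3:**
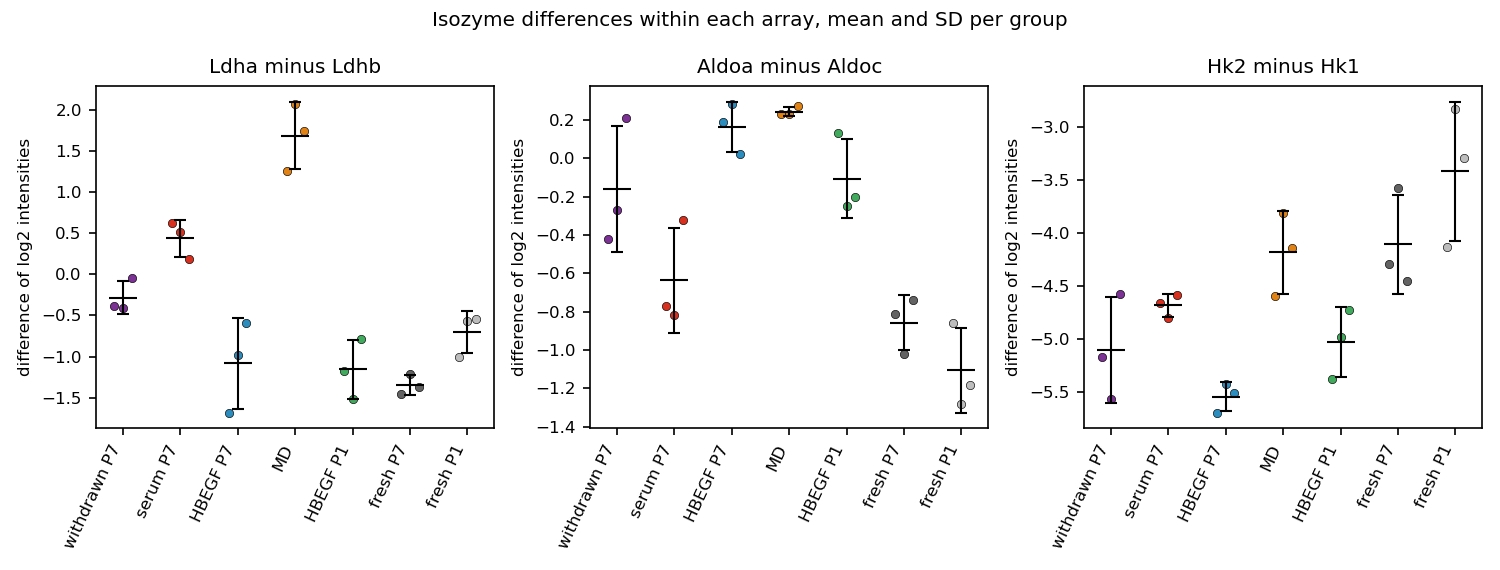
Log2 intensity of 1 isozyme gene minus that of its partner on each array (points), with mean and SD of 3 arrays per group, for Ldha minus Ldhb, Aldoa minus Aldoc and Hk2 minus Hk1. For Ldha minus Ldhb the MD arrays, with a mean of 1.69, and the serum P7 arrays, with a mean of 0.44, lie above the arrays of the HBEGF cultures.

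Around the branch from pyruvate, Pdk4 was at 7.38, 6.97 and 6.84 in MD cultures, against 9.12, 8.66 and 9.01 in HBEGF P1 cultures and 9.77, 9.87 and 10.92 in fresh P1 cells. MD cultures were the lowest on every array, with changes of -1.87 (SE 0.28, adjusted p = 5.7e-05) and -3.13, or 8.74-fold lower (SE 0.28, adjusted p = 1.89e-07). The second probe set of Pdk4, at a mean of 6.07, gave -0.02 and -0.32. Pc was at 7.43, 7.83 and 7.99 in MD cultures, below all arrays of HBEGF P1 cultures (-1.54, SE 0.22, adjusted p = 3.85e-05) and of fresh P1 cells (-2.74, SE 0.22, adjusted p = 5.8e-08). Pdk1, another of the pyruvate dehydrogenase kinases, had a lowest array of 7.76 and a highest of 8.16 in MD cultures, against 9.75, 9.08 and 9.36 in HBEGF P1 cultures and 9.95, 9.82 and 9.78 in fresh P1 cells. It fell by 1.43 (adjusted p = 0.000122) and 1.88 (adjusted p = 6.44e-06), and its second probe set by 1.24 and 1.27. Pdk2 (-0.05 and 0.46), Pdk3 (0.01 and -0.50) and Pdha1 (-0.30 and -0.06), the catalytic alpha subunit of pyruvate dehydrogenase, were not called.

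Among the glycogen genes, Pygb, the brain form of glycogen phosphorylase, was at 11.01, 11.09 and 10.99 in MD cultures, against 12.93, 12.95 and 12.86 in HBEGF P1 cultures and 12.56, 12.70 and 12.68 in fresh P1 cells. The MD arrays lay close together and far below the rest, with changes of -1.88 (SE 0.15, adjusted p = 6.77e-08) and -1.61 (SE 0.15, adjusted p = 2.23e-07). Pygl was at 5.14, 5.66 and 5.94 in MD cultures, which is below the median of all values, and fell by 1.36 (SE 0.37, adjusted p = 0.00747) and 1.80 (SE 0.37, adjusted p = 0.000834). Gbe1, the branching enzyme, was at 10.08 ± 0.17 in MD cultures, against 10.92 ± 0.03 in HBEGF P1 cultures and 11.15 ± 0.14 in fresh P1 cells (SD, n = 3 each). It was called against fresh P1 cells only (-1.07, adjusted p = 0.000226), and at -0.99 or -0.97 it missed the fold limit without fresh P1 replicate 1 or MD replicate 3. Gys1, glycogen synthase, was not called (-0.22 and -0.22), and neither was Pygm (-0.95 and -0.59).

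At the upper steps of glycolysis, Pfkm, the muscle form of phosphofructokinase, was at 10.01, 9.85 and 9.81 in MD cultures, against 11.81, 11.94 and 11.86 in HBEGF P1 cultures and 11.24, 11.40 and 11.43 in fresh P1 cells. The gap exceeded the spread of any group, at -1.98 (SE 0.25, adjusted p = 1.08e-05) and -1.46 (SE 0.25, adjusted p = 0.000184). A second probe set at a mean of 9.47 gave -1.94 and -1.44, and another, at 6.17, gave 0.11 and -0.01. Pfkfb2 fell by 2.10 (SE 0.18, adjusted p = 1.65e-07) and 1.16 (SE 0.18, adjusted p = 6.59e-05), again on 1 of its 4 probe sets only. Pfkfb3 fell by 1.52 against fresh P1 cells (adjusted p = 0.0322), a call lost without 5 of the 6 arrays in turn. It was not called against HBEGF P1 cultures (-0.32, adjusted p = 0.672). A dim probe set of Pfkfb3 was at 5.38 in MD, 4.74 in HBEGF P1 and 7.01 in fresh P1 cells. Another was at 7.43, 7.08 and 7.29. Pfkp rose by 1.04 against fresh P1 cells (adjusted p = 0.00169), under the fold limit when 1 of 3 arrays was left out (0.95 to 0.99), and differed by -0.64 from HBEGF P1 cultures (adjusted p = 0.0371). Slc2a1 (0.56 and -0.10), Hk1 (-0.07 and 0.65), Hk2 (0.77 and -0.12), Gpi, the phosphoglucose isomerase (-0.72 and -0.56), and Pfkl, liver phosphofructokinase (0.84 and 0.81), were not called.

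At the lower steps, Eno2 was at 10.41, 9.80 and 9.80 in MD cultures, against 8.05, 7.86 and 7.85 in fresh P1 cells. It rose by 2.08 (SE 0.19, adjusted p = 3.02e-07) against these, while the 0.90 against HBEGF P1 cultures was under the fold limit (adjusted p = 0.00151). Pgam1, phosphoglycerate mutase, rose by 1.06 against fresh P1 cells (adjusted p = 7.47e-06) and was 0.45 higher than in HBEGF P1 cultures. It was at 0.97 without fresh P1 replicate 1 or MD replicate 2. Tpi1, triosephosphate isomerase (0.78 and 0.79), and Pgk1, phosphoglycerate kinase (0.44 and 0.62), were above HBEGF P1 cultures and fresh P1 cells with adjusted p between 0.000147 and 0.00326, all under the fold limit. Aldoa (-0.08 and 0.44), Aldoc (-0.44 and -0.91) and Eno1 (0.15 and 0.34) were not called. Gpd1, which links glycolysis to glycerol phosphate, was at 8.51, 8.28 and 8.42 in MD cultures, against 7.49, 7.84 and 7.14 in HBEGF P1 cultures and 6.10, 5.75 and 6.39 in fresh P1 cells. The MD arrays were highest, by 2.32 against fresh P1 cells (SE 0.35, adjusted p = 4.97e-05) and by 0.91 against HBEGF P1 cultures (adjusted p = 0.0499), and the dim second probe set gave 0.58 and 0.59.

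The summed astrocyte markers were 55560 to 66564 in MD cultures, 107676 to 124971 in HBEGF P1 cultures and 85756 to 92276 in fresh P1 cells. Of the 11, 6 were called lower in MD cultures than in fresh P1 cells and 4 lower than in HBEGF P1 cultures, and none was called higher. All 9 microglia markers and all 7 endothelial markers measured were below the median of all values in MD cultures. The sum of 10 fibroblast and meningeal markers was 14103 to 17610 in MD cultures, with Dcn, Lum and Col3a1 below the median, against 20534 to 26360 in HBEGF P1 cultures and 5341 to 11201 in fresh P1 cells. Of these 10, 3 were called higher (Fn1, Col1a2 and Mgp) and 5 lower than in fresh P1 cells, and 2 higher (Fn1 and Col1a2) and 7 lower than in HBEGF P1 cultures. Of 10 neuron markers, 1 was called higher and 4 lower than in fresh P1 cells, and 0 higher and 5 lower than in HBEGF P1 cultures. Of 5 markers of oligodendrocyte progenitors, 2 were called lower than in fresh P1 cells and 3 lower than in HBEGF P1 cultures. Their sums were 507 to 611 in MD cultures. Pdgfra is on this list and also on the fibroblast and meningeal list. The part of cell make-up in the member changes was not tested.

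Serum was also set against HBEGF in panned P7 cells, where age and panning were the same. Only Slc2a1 was called, higher in serum P7 cultures, although 12 members passed the adjusted p alone, 6 in each direction (18.8%), with 11.2% of all genes higher and 14.1% lower. That is 1 of 32 higher and 0 lower, where 4.83% of all genes were called higher and 4.47% lower. At an unadjusted p under 0.05, 8 members were higher and 6 lower, with 17.5% and 21% of all genes. The median change was 0.06, against -0.00 over all genes. Slc2a1 was at 11.64, 11.42 and 11.05 in serum P7 cultures, against 10.42, 9.12 and 10.79 in HBEGF P7 cultures. The groups did not overlap, but HBEGF P7 replicate 2 was far below the others, and the change was 1.26 (SE 0.31, adjusted p = 0.00845) with it and 0.77 (adjusted p = 0.0305) without it.

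Ldha was at 13.82, 13.75 and 13.35 in serum P7 cultures, against 12.49, 13.07 and 13.25 in HBEGF P7 cultures. Ldhb was at 13.20, 13.24 and 13.17 in serum P7 cultures, against 14.17, 14.05 and 13.84 in HBEGF P7 cultures. Each pair of groups was separate, with 0.71 for Ldha (SE 0.21, adjusted p = 0.0218) and -0.82 for Ldhb (SE 0.13, adjusted p = 0.000406), the direction seen in MD cultures and below the fold limit. Also higher at an adjusted p under 0.05 were Aldoc (0.91), Slc16a3 (0.91), Pdk3 (0.90) and Eno2 (0.79), and lower were Pdk4 (-0.92), Pygm (-0.87), Pdk2 (-0.68), Pygb (-0.63) and Pfkfb2 (-0.56). Aldoa (0.11), Hk1 (-0.17) and Hk2 (0.69) were not called. The sum of fibroblast and meningeal markers was 80535 to 126176 in serum P7 cultures and 22525 to 51759 in HBEGF P7 cultures, with 6 of the 10 called higher and none of them below the median of all values in either group. Of 10 neuron markers 5 were called lower, with sums of 3782 to 7819 in serum P7 and 9754 to 15679 in HBEGF P7 cultures. Of 7 endothelial markers 1 was called higher and 0 lower, with sums of 441 to 956 in serum P7 and 257 to 360 in HBEGF P7 cultures. Of 6 mural markers 2 were called higher and 0 lower, with sums of 1991 to 2047 and 628 to 812. Of 11 astrocyte markers 0 were called higher and 2 lower. The part of these cells in the values was not tested.

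The response to serum in panned P7 cells (serum against HBEGF P7) was tested against the change between MD and HBEGF P1 cultures. That second change mixes serum with selection, since MD cells were not panned and HBEGF P1 cells were. Both are called serum responses here for short. Age and panning differ together between these responses and cannot be told apart. The difference was called for 7 of the 32 members, all higher in the panned P7 cells, and for 0 lower. Of all genes, 5.02% were higher and 6.29% lower, and at an unadjusted p under 0.05 13 members were higher and 3 lower, with 14.5% and 18.2% of all genes. The 7 were Pygl (1.87, adjusted p = 0.0235), Pfkfb2 (1.54, adjusted p = 0.000813), Pc (1.54, adjusted p = 0.0037), Pfkm (1.46, adjusted p = 0.0112), Aldoc (1.35, adjusted p = 0.00171), Pdk1 (1.33, adjusted p = 0.0119) and Pygb (1.26, adjusted p = 0.000875). Between serum P7 and HBEGF P7 cultures the change was -0.00 for Pc and -0.10 for Pdk1, whereas both fell in MD cultures. The change of Aldoc was 0.91 in serum P7 cultures and -0.44 in MD cultures, each against its HBEGF cultures. The difference was not called for Ldha (-0.88, adjusted p = 0.055), Ldhb (0.44, adjusted p = 0.15) or Pdk4 (0.94, adjusted p = 0.14). The value of Pygl was lost without MD replicate 1, HBEGF P1 replicate 1 or HBEGF P7 replicate 2 (adjusted p up to 0.0656), and it was also not called with the compared groups alone. The Pdk1 difference was 0.47 on its second probe set (adjusted p = 0.647), and that of Pfkfb2 was -0.05, -0.15 and -0.09 on its 3 other probe sets. Neither of these was called with the mean over probe sets.

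**Figure D4:**
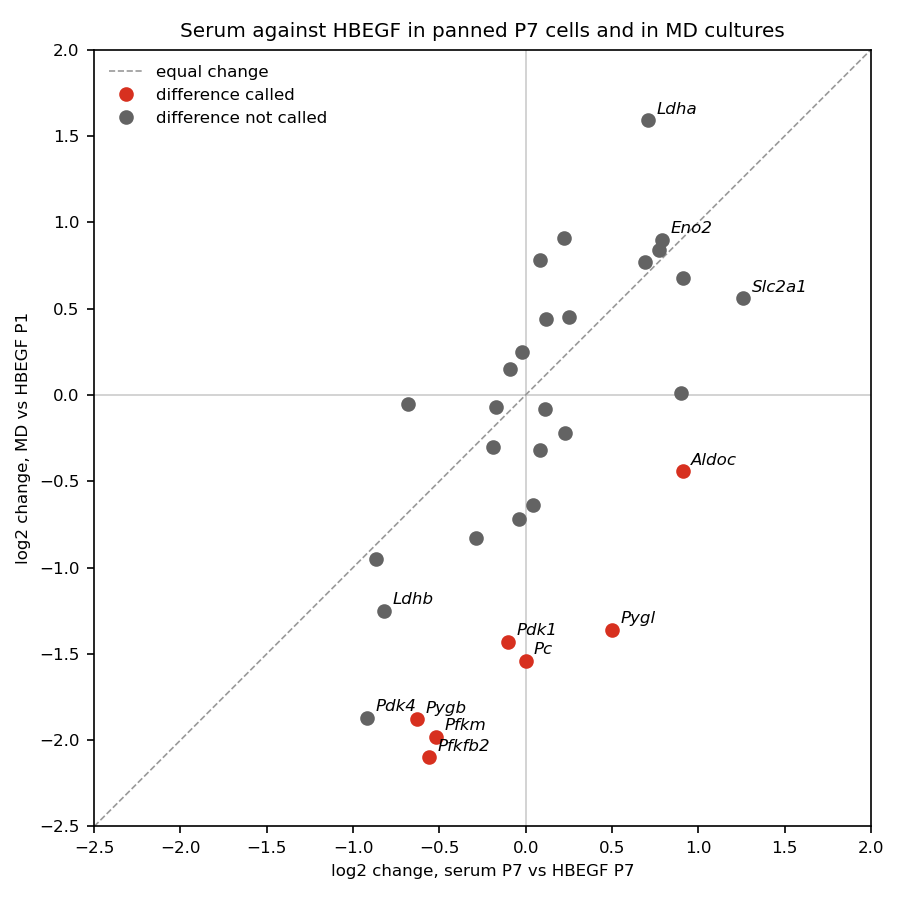
Log2 change of each of the 32 genes between serum P7 and HBEGF P7 cultures (horizontal axis) and between MD and HBEGF P1 cultures (vertical axis), each point 1 gene and the dashed line equal change. The 7 red points, whose difference was called, all lie below the line, with Pygl at 0.50 and -1.36, and Ldha lies at 0.71 and 1.59.

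After serum was removed, withdrawn P7 cultures had more Pdk4 and less Gpd1 than serum P7 cultures. These were 1 of 32 members higher and 1 lower, where 2.24% of all genes were called higher and 2.26% lower, with median changes of -0.14 for the members and 0.02 for all genes. Pdk4 was at 9.66, 9.67 and 8.90 in withdrawn P7 cultures, against 8.43, 8.25 and 8.44 in serum P7 cultures. The groups were apart (1.04, SE 0.28, adjusted p = 0.0316), but the call was lost without serum replicate 1 or 2 or withdrawn replicate 1 or 2, with adjusted p up to 0.135. Gpd1 was at 6.04, 6.60 and 5.98 in withdrawn P7 cultures, against 8.31, 8.12 and 7.38 in serum P7 cultures. It was lower on every array (-1.73, SE 0.35, adjusted p = 0.00632), while its dim second probe set gave 0.06. Pfkfb2 (0.98, adjusted p = 0.00345) and Pygb (0.62, adjusted p = 0.0162) were higher under the fold limit. Ldha (-0.37), Ldhb (0.35), Aldoa (0.13), Aldoc (-0.35), Hk1 (0.15) and Hk2 (-0.27) were not called. Without serum replicate 3, 5 members were called, 4 of them higher, and calls over all 14217 genes also rose, from 640 to 954.

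Withdrawn P7 cultures were last set against HBEGF P7 cultures, which never met serum and were kept for fewer days. Pfkl, Eno2, Slc2a1 and Pygl were higher and Gpd1 lower, so that 4 of 32 members were called higher and 1 lower, where 6.29% of all genes were called higher and 5.42% lower. The median change was 0.04, against 0.01 over all genes. Pygl was at 8.26, 8.52 and 8.81 in withdrawn P7 cultures, against 7.68, 6.79 and 7.38 in HBEGF P7 cultures (1.25, SE 0.37, adjusted p = 0.0203). Eno2 was at 10.02, 10.09 and 10.40 in withdrawn P7 cultures, against 9.31, 9.10 and 9.05 in HBEGF P7 cultures (1.02, SE 0.19, adjusted p = 0.00139). Neither pair of groups overlapped. Pfkl rose by 1.14 (adjusted p = 0.00675), Slc2a1 rose by 1.08 (adjusted p = 0.0191) and Gpd1 fell by 1.51 (adjusted p = 0.00499). All 5 calls were lost without HBEGF P7 replicate 2, where the changes were 1.00 for Pygl, 0.99 for Eno2, 0.76 for Pfkl, 0.58 for Slc2a1 and -0.98 for Gpd1. Ldhb (-0.47, adjusted p = 0.0168) and Aldoc (0.56, adjusted p = 0.0271) were under the fold limit, and Ldha (0.33), Aldoa (0.23), Hk1 (-0.02) and Hk2 (0.42) were not called. The fibroblast and meningeal sum was 77234 to 113773 in withdrawn P7 cultures, and the sum of 9 microglia markers was 1313 to 4232 there, 421 to 502 in serum P7 cultures and 420 to 2082 in HBEGF P7 cultures, with Aif1, Cx3cr1, Itgam, P2ry12 and Ptprc below the median in all 3 groups. In withdrawn P7 cultures the other microglia and macrophage markers, Csf1r, Cd68, Tyrobp and C1qa, were above the median. All 4 were called higher than in serum P7 cultures, and Csf1r, Tyrobp and C1qa were called higher than in HBEGF P7 cultures. C1qa was at 10.13 in withdrawn P7, 5.98 in serum P7 and 7.07 in HBEGF P7 cultures. Of 10 neuron markers 5 were called lower than in HBEGF P7 cultures. Of 7 endothelial markers 2 were called higher than in HBEGF P7 cultures and 0 lower, and of 6 mural markers 2 higher and 0 lower. The part of these cells was not tested.

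Other genes of the same pathways came from textbook lists. Over all genes, and both directions together, 18.4% were called in MD against HBEGF P1, 19.6% in MD against fresh P1, 9.3% in serum P7 against HBEGF P7 and 11.7% in withdrawn P7 against HBEGF P7. In HBEGF cultures against fresh cells the share was 8.87% at P1 and 10.3% at P7, and between the fresh cells it was 1.55%. Of 46 other glycolysis, lactate, pyruvate and glycogen genes, 5 were called higher and 4 lower in MD than in HBEGF P1 cultures, together 19.6% and so near the share of all genes. Slc2a3, the glucose transporter GLUT3, was at 8.35 in MD and 5.37 in HBEGF P1 cultures (2.98, adjusted p = 2.14e-08). Emb, embigin, which escorts monocarboxylate carriers to the membrane, was at 10.62 in MD and 8.23 in HBEGF P1 cultures (2.38, adjusted p = 8.9e-06). Eno3, the muscle enolase, rose by 2.38 (adjusted p = 3.43e-07), and Phkb, a subunit of phosphorylase kinase, fell by 1.76 (adjusted p = 1.8e-08). Between serum P7 and HBEGF P7 cultures 3 of the 46 were higher and 1 lower (8.7%), again near that share. Slc2a3 (2.35, adjusted p = 1.51e-06) and Emb (2.77, adjusted p = 9.31e-06) rose there too, as did Slc16a7, the carrier MCT2 (1.06, adjusted p = 0.0191), and Phkg1, another subunit of phosphorylase kinase, fell by 1.22 (adjusted p = 0.0057). In withdrawn P7 against HBEGF P7 cultures 5 were higher and 2 lower (15.2%), led by Emb (2.25, adjusted p = 7.94e-05), and including Bsg, basigin, the partner of MCT1 and MCT4 (1.47, adjusted p = 0.00032).

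Against fresh P1 cells, 4 of the 46 were higher and 4 lower in MD cultures (17.4%), and 0 higher and 2 lower in HBEGF P1 cultures (4.35%), where Emb fell by 1.92 (adjusted p = 0.000191) and Pdp2, a phosphatase that activates pyruvate dehydrogenase, by 1.43 (adjusted p = 3.88e-06). Pdp2 also fell by 1.69 in HBEGF P7 cultures against fresh P7 cells (adjusted p = 4.17e-07), where Ppp1r3b, a glycogen-targeting subunit of protein phosphatase 1, rose by 2.35 (adjusted p = 0.00571) and Pfkfb4, a relative of Pfkfb3, fell by 1.05 (adjusted p = 3.84e-06). Between fresh P7 and fresh P1 cells Pfkfb4 alone was called (1.06, adjusted p = 5.56e-05). None of the 46 was called by limma between withdrawn and serum P7 cultures, where 4 were higher and 8 lower at an unadjusted p under 0.05, and 12.5% and 13.2% of all genes.

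The list for the tricarboxylic acid cycle held 22 measured genes, among them Aco1, Idh1, Mdh1, Me1 and Acly of related cytosolic enzymes. Of these 22, 2 were called lower and 0 higher (9.09%) when MD was set against HBEGF P1 cultures. They were Idh1, at 10.76 in MD and 13.07 in HBEGF P1 cultures (-2.31, adjusted p = 5.07e-08), and Idh2 (-1.18, adjusted p = 3.23e-07), the isocitrate dehydrogenases that make NADPH. None of the 22 was called between serum P7 and HBEGF P7 cultures (1 higher and 5 lower at an unadjusted p under 0.05). Nor was any of 9 pentose phosphate genes called there or in MD against HBEGF P1 cultures. At that unadjusted p, 3 of the 9 were higher and 0 lower in MD, and 2 higher and 3 lower in serum P7 cultures. Of all genes, 27.3% were higher and 23.8% lower in MD against HBEGF P1 cultures at that p. Between serum P7 and HBEGF P7 cultures these shares were 17.5% and 21%. Of 26 genes of hypoxia-inducible factor and its targets outside the members, 5 were higher and 3 lower in MD than in HBEGF P1 cultures (30.8%), and 5 higher and 0 lower in serum P7 than in HBEGF P7 cultures (19.2%). P4ha2, a collagen prolyl hydroxylase subunit, rose in both (1.53, adjusted p = 0.000232, and 2.77, adjusted p = 3.31e-06), as did Slc2a3, which this list shares. Mxi1, a partner of Max, fell by 2.27 in MD against HBEGF P1 cultures (adjusted p = 4.61e-07), and Ddit4, a stress-induced inhibitor of mTOR signalling, rose by 1.81 in serum P7 against HBEGF P7 cultures (adjusted p = 0.00211). Vegfa, the vascular growth factor, fell by 2.44 in HBEGF P7 cultures against fresh P7 cells (adjusted p = 4.42e-06) and by 1.18 in HBEGF P1 cultures against fresh P1 cells (adjusted p = 0.00423).

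Of 25 further regulators, Ppargc1a, a coactivator of mitochondrial genes, was at 5.42 in MD and 9.16 in HBEGF P1 cultures (-3.74, adjusted p = 6.7e-06) and at 6.73 in serum P7 and 9.38 in HBEGF P7 cultures (-2.64, adjusted p = 0.000626). It was still at 6.87 in withdrawn P7 cultures (-2.51 against HBEGF P7 cultures, adjusted p = 0.000948). Txnip, which restrains glucose uptake, was at 13.38 in withdrawn P7 cultures, against 10.76 in HBEGF P7 cultures (2.63, adjusted p = 0.00498). The growth regulator Myc fell in HBEGF P1 (-2.42) and HBEGF P7 cultures (-2.64) against their fresh cells (adjusted p = 2.39e-05 and 7.2e-06), and so did Irs2, an insulin receptor substrate (-2.13 and -2.18, adjusted p = 1.38e-06 and 8.22e-07). Of the 25, MD cultures had 1 called higher and 1 lower than HBEGF P1 cultures (8%), and serum P7 cultures had 3 higher and 1 lower than HBEGF P7 cultures (16%). HBEGF P1 cultures had 0 higher and 3 lower than fresh P1 cells (12%), and HBEGF P7 cultures had 0 higher and 5 lower than fresh P7 cells (20%).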

How the data were processed

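Forebrain astrocytes of 7 groups were hybridised to 21 rat expression arrays, 3 per group. Per the labels, RNA was extracted with a QIAGEN kit and labelled with a 3' IVT kit. The deposited values are intensities, 1 per probe set and array, made with RMA per the submitters' processing notes. No source used here gives the software version or the chip definition. Since the deposited values lie between 10 and 37801 they were taken as linear, and their log2 was used with no further filter or normalization. RMA puts arrays on a common scale, so changes are relative to the other genes.

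The table held 31042 probe sets, of which 20826 carried 1 gene symbol, 436 several and 9780 none; 20758 were matched by gene number to the RefSeq gene table, from which symbols were updated. Each gene was read from its single-symbol probe set with the highest mean. Groups were compared with limma 3.58.1 (R 4.3.3; lmFit, contrasts.fit and eBayes) in a model of all 7 groups (residual degrees of freedom 14, prior 2.89), with Benjamini-Hochberg adjustment over all 31042 probe sets within a comparison. The limit on the fold was 1 on the log2 scale. The number of arrays limits the precision, and the median SE of a log2 change was 0.17 over all genes. p-values measure the spread between arrays labelled as biological replicates, which were not traced to separate litters. Isozyme differences were compared with exact permutation tests.

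Replicate numbers were checked for pairing. Over 63 pairs of arrays with the same number, deviations from the group means correlated between -0.18 and 0.59, with a median of 0.06 and 30 pairs over 0.1. Over 126 pairs with other numbers the median was -0.02, with 13 over 0.1. Same-numbered pairs were thus over 0.1 more often than others, but no label ties them. The numbers were not taken to pair arrays, so any part they share stays in the SDs and SEs. In Eno1, replicate 1 was the lowest array of both fresh groups, of MD and of both HBEGF groups. It was not the lowest in serum P7 or withdrawn P7 cultures. With a replicate block all 56 member calls stayed. The fit was tested on simulated data. The members and all gene lists were chosen with earlier results of these data known. Called members are named, up to 8 by size in a comparison, with the 3 isozyme pairs, and up to 4 called genes of each other list. Alternatives tried were the mean over probe sets, dim probe sets left out, median centring, quantile normalization, a replicate block, eBayes with trend and robust, the compared groups alone, no fold limit and each array left out in turn.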

Additional observations from a re-analysis of the deposited data

Results flagged for a closer look

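Differences between responses passed the test for 8 members, some of them only under part of the settings. The response to culture in HBEGF differed between P7 and P1 cells for Pfkp by -1.75 and for Pfkfb2 by -1.37 (limma, adjusted p = 0.0166 for each). The response to serum differed between panned P7 cells and MD cultures for Pygl by 1.87 (adjusted p = 0.0235), Pfkfb2 by 1.54 (adjusted p = 0.000813), Pc by 1.54 (adjusted p = 0.0037), Pfkm by 1.46 (adjusted p = 0.0112), Aldoc by 1.35 (adjusted p = 0.00171), Pdk1 by 1.33 (adjusted p = 0.0119) and Pygb by 1.26 (adjusted p = 0.000875). Positive values mean a change further upward in the panned P7 cells, on the log2 scale. The serum response of MD cultures was taken against HBEGF P1 cultures, from which they differ in selection as well as in medium. Age and panning differ together between the serum responses and cannot be told apart. The culture differences of Pfkp and Pfkfb2 were lost without fresh P1 replicate 2 (adjusted p = 0.0595 each), and the serum difference of Pygl without MD replicate 1, HBEGF P1 replicate 1 or HBEGF P7 replicate 2 (adjusted p = 0.0656, 0.0592 and 0.0617). With the compared groups alone those of Pfkp and Pygl were lost. With the mean over probe sets both differences of Pfkfb2 and that of Pdk1 were lost, and the 3 other probe sets of Pfkfb2 gave -0.05, -0.15 and -0.09 for the serum response.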

How the results depend on the processing

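Over the 10 comparisons 56 member changes were called, and none changed sign under any alternative. Of these, 56 stayed called with dim probe sets left out, with quantile normalization, with the replicate block and with trend and robust settings. With arrays centred on their median 54 stayed, and Ldhb and Gbe1 in MD against fresh P1 were lost; this centring moved the median of all genes by 0.11 in MD against HBEGF P1. With the mean over a gene's probe sets 42 stayed; counts became 2 in serum P7 against HBEGF P7, 0 in withdrawn P7 against serum P7 and 1 in the culture response, and Hk2 minus Hk1 in serum P7 against HBEGF P7 became 0.73, from 0.86. With the compared groups alone, which leaves fewer degrees of freedom, 47 stayed; counts became 3 in HBEGF P7 against fresh P7, 0 in serum P7 against HBEGF P7, 2 in withdrawn P7 against HBEGF P7 and 1 in the culture response. Without a fold limit counts became 10 in HBEGF P1 against fresh P1, 12 in HBEGF P7 against fresh P7, 24 in MD against fresh P1, 20 in MD against HBEGF P1, 12 in serum P7 against HBEGF P7, 4 in withdrawn P7 against serum P7 and 9 in withdrawn P7 against HBEGF P7. Of all genes, 15% were then higher and 9.06% lower in HBEGF P1, and 16.5% and 12% in HBEGF P7, against fresh cells. In MD cultures the shares were 25.2% and 18.1% against fresh P1, and 21.9% and 20.4% against HBEGF P1. Against HBEGF P7 they were 11.2% and 14.1% in serum P7, and 13.7% and 16.2% in withdrawn P7 cultures. For withdrawn against serum P7 cultures they were 4.61% and 5.36%.

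With each array left out in turn 35 of the 56 calls stayed throughout. Counts of members ran from 3 to 4 in fresh P7 against fresh P1, 4 to 7 in HBEGF P1 against fresh P1, 3 to 5 in HBEGF P7 against fresh P7 (3 without fresh P7 replicate 2), 12 to 14 in MD against fresh P1 and 9 to 10 in MD against HBEGF P1. They ran from 1 to 4 in serum P7 against HBEGF P7 (4 without HBEGF P7 replicate 3, 3 without serum replicate 3) and 1 to 5 in withdrawn P7 against serum P7 (1 without serum replicate 1 or 2 or withdrawn replicate 1 or 2, 5 without serum replicate 3). They ran from 0 to 5 in withdrawn P7 against HBEGF P7 (0 without HBEGF P7 replicate 2, 2 and 3 without withdrawn replicate 2 and 3), 0 to 3 in the culture response (0 without fresh P1 replicate 2, 1 without HBEGF P1 replicate 1) and 6 to 9 in the serum response. Counts over all genes moved by more than 1.5 times in withdrawn P7 against serum P7 (640, and 337 to 954), the culture response (116, and 50 to 343) and fresh P7 against fresh P1 (221, and 136 at the lowest), and with the compared groups alone in serum P7 against HBEGF P7 (762, from 1322), withdrawn P7 against HBEGF P7 (895, from 1664) and the culture response (58). The cause was not tested.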
